A study of Homo sapiens with 6 samples.

Results

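LINC symbols are the numbered names given to long intergenic non-coding RNA genes, transcripts that resemble messenger RNAs in their poly-A tails and often in their splicing but are not annotated as coding. The transcripts described here are the genes whose name is LINC followed by a number and whose mean was at least 1 FPKM (fragments scaled to exon length and library depth) over the 6 libraries of the study, with LINC02001 left out. Of the 58735 genes of the table, 1878 carried such a name, and 74 of them met the rule. Of the others, 1803 had a mean under 1 FPKM, and 1110 were listed at 0 in every library. The members were chosen by name and by their mean level over both groups, so their levels are a description. The difference between the groups was not part of the rule. The filter can nevertheless admit a low transcript through 1 group only: 9 members had a mean under 1 FPKM in siNC and 5 in siRBM8A.

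The libraries came from AGS, an established human gastric adenocarcinoma cell line, labelled as wild type. Cells received either siNC, the control siRNA, or siRBM8A, the siRNA named for RBM8A, with Lipofectamine 2000, and RNA was taken 48 hours later. There were 3 biological replicates per siRNA, and the labels put all 6 in 1 batch. RNA was selected for poly-A tails, so transcripts without a tail are measured poorly or not at all.

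The product of RBM8A, Y14, belongs to the core of the exon junction complex, a mark that splicing leaves on RNA a short distance upstream of each junction. In the cytoplasm, a complex that remains downstream of a stop codon favours nonsense-mediated decay through the UPF proteins. Long non-coding RNAs can enter this pathway when ribosomes translate a short reading frame on them, and many are also degraded in the nucleus by the RNA exosome. A single-exon transcript has no junction to receive the complex.

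The 3 members that passed the test are shown first in the sense of the RNA, since they differ in the number of their junctions. The complex is placed a short distance upstream of a junction, not on the junction bases marked below. For each a window of 300 bases is given. For LINC01023, annotated as 1 exon of 436 bases, the window covers bases 131 to 430. There the capitals mark the start and stop codons of the longest reading frame of the transcript, which spans 59 codons. In LINC02331, with 4 exons and 602 bases, the capitals mark the 8 bases around 2 of its 3 junctions (window: bases 185 to 484). In the 3-exon transcript of LINC01480, of 467 bases, they mark both junctions (window: bases 1 to 300). The sequences are those of GENCODE 29 on GRCh38, written as DNA letters.
LINC01023: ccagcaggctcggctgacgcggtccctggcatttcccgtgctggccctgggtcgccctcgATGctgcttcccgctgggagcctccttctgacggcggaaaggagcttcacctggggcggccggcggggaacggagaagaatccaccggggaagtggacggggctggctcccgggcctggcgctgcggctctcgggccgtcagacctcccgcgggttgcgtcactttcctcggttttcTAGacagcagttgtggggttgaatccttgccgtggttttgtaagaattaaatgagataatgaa
LINC02331: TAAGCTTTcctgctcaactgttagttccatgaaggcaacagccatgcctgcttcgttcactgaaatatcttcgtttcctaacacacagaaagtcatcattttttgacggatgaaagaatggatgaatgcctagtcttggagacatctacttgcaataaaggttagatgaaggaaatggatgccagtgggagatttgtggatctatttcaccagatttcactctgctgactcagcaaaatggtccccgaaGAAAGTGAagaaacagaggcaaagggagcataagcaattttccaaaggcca
LINC01480: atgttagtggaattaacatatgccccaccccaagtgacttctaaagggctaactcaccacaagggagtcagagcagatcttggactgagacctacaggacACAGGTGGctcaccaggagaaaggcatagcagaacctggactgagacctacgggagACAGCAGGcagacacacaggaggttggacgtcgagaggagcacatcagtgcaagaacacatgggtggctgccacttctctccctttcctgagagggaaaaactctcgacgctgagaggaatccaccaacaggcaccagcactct
Which isoform the cells made is not known from a table of values per gene.

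RBM8A itself checks the labels. It measured 15.3, 13.2 and 14.8 FPKM in siNC replicates 1 to 3 and 3.25, 2.23 and 3.38 FPKM in siRBM8A replicates 1 to 3. The siRBM8A mean of 2.95 ± 0.630 FPKM (SD, n = 3) was 20.5% of the siNC mean of 14.4 ± 1.08 FPKM (SD, n = 3), a log2 fold change of -1.97 (SE 0.142, limma adjusted p = 0.00544). An exact two-sided permutation test gave p = 0.1, the smallest value that 3 against 3 libraries allow. Leaving out siRBM8A replicate 3 gave a log2 fold change of -2.05 with an adjusted p of 0.0544, in a range of 9.08e-10 to 0.0544 over the 19 alternative settings. The libraries held 14838527 to 16561306 fragments, and 3 fragments on 1 kb of exon correspond to 0.177 to 0.197 FPKM. The epithelial markers were high, with a summed level of 1750 to 2413 FPKM, and limma called 0 of 6, also at an unadjusted p under 0.05. PTPRC, DCN and SNAP25, which mark leukocytes, fibroblasts and neurons, were listed at 0 FPKM in every library. The summed leukocyte, endothelial and neuronal markers reached at most 0.266, 0.101 and 0.0533 FPKM. The 4 fibroblast markers summed to 3.48 to 4.67 FPKM, of which COL1A1 held 3.41 to 4.64 FPKM.

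siRBM8A was compared with siNC by limma on log2(FPKM + 1) over the 12678 genes whose mean reached 1 FPKM. A gene was called where its adjusted p (Benjamini-Hochberg over these genes) was under 0.05. In that fit 3 LINC transcripts rose, namely LINC01023, LINC02331 and LINC01480, and 0 fell. That is 4.05% of the 74, against 5.59% of all tested genes, 2.41% called higher and 3.19% called lower, so the share was close to the background. At an unadjusted p under 0.05 there were 21 members, 16 of them higher and 5 lower, which is 28.4% of the members against 26.3% of all tested genes. The log2 fold change was above 0 in 44 of the 74 (59.5%), against 48.6% of all tested genes. Its median over the members was 0.09, against -0.01 over all tested genes and 0.10 over the 908 other tested long non-coding RNAs, of which 53 rose and 13 fell (7.27% called). The filter admitted 9 members through a higher siRBM8A mean and 5 through a higher siNC mean, and so fixed the direction of these members. LINC01023 and LINC01480 are among the 9, so a call of either could only be higher. The median and the counts by direction are therefore a description only.

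Libraries with the same replicate number deviated from their group means together, with correlations across genes of 0.507, 0.663 and 0.102 for replicates 1, 2 and 3, so a second fit that blocks on this number was read beside it. Replicate 3 did not match its own number best: siNC replicate 3 correlated at 0.258 with siRBM8A replicate 1, and siRBM8A replicate 3 at 0.187 with siNC replicate 1. The labels state no pairing, so calls made with the block rest on a match seen in the data. With the block 14 members were called higher and 5 lower, 25.7% of the 74, while 40.2% of all tested genes were called, 18.9% higher and 21.3% lower. Limma-voom on recovered fragments called 6 members higher and 0 lower, 8.11% against 8.01% of all tested genes, 4.41% higher and 3.6% lower. With the block the members' share of higher calls was level with the background and their share of lower calls was under it. In 26 members (18 higher and 8 lower) the values of the 2 groups did not overlap, 35.1% against 31.3% of all tested genes.

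**Figure D1:**
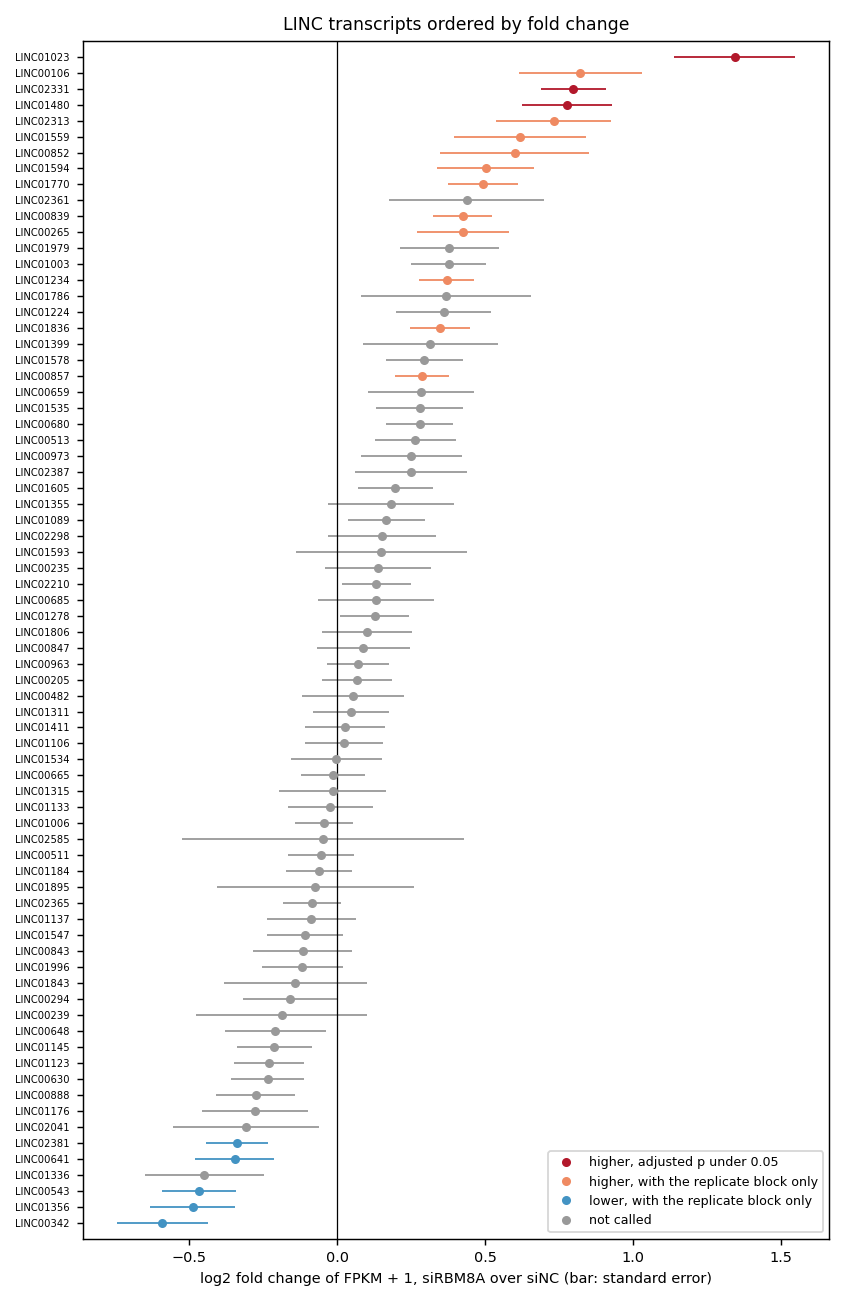
Log2 fold change of FPKM + 1 for each of the 74 LINC transcripts, siRBM8A over siNC, with bars for the standard error. The 3 transcripts called without the block lie between 0.78 and 1.34, and the lowest, LINC00342, lies at -0.59.

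LINC01023 (ENSG00000272523) had the largest fold change of the 74. It lies on the minus strand at chr5:108727825-108728260 (GRCh38), and its nearest protein-coding gene is FER, a tyrosine kinase gene 19562 bases away. It measured 1.24, 0.719 and 0.412 FPKM in the siNC libraries and 3.11, 4.38 and 3.02 FPKM in the siRBM8A libraries. Each siRBM8A value was more than any siNC value. The mean went from 0.791 ± 0.419 to 3.50 ± 0.763 FPKM (SD, n = 3 each), 4.43-fold, with a log2 fold change of 1.34 (SE 0.206, limma adjusted p = 0.0218). These values rest on 9, 5 and 3 fragments in siNC and on 23, 31 and 20 in siRBM8A, and the siNC mean was under 1 FPKM. FER had 1.36 FPKM in siNC and 1.11 in siRBM8A (log2 fold change -0.17, SE 0.167, limma adjusted p = 0.561).

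LINC02331 (ENSG00000235269) lies on the minus strand at chr14:53768942-53850882, with BMP4, the gene of a secreted growth factor, 98854 bases away. It measured 1.50, 1.67 and 1.89 FPKM in siNC and 3.72, 3.89 and 3.39 FPKM in siRBM8A. The spread within each group was small beside the gap between them: 1.68 ± 0.196 against 3.67 ± 0.255 FPKM (SD, n = 3 each), 2.18-fold, a log2 fold change of 0.80 (SE 0.109, limma adjusted p = 0.0160). It rested on 15 to 19 fragments per siNC library and 31 to 38 per siRBM8A library. BMP4 had 6.28 FPKM in siNC and 6.34 in siRBM8A (log2 fold change 0.01, SE 0.0941, limma adjusted p = 0.961).

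LINC01480 (ENSG00000270164) lies on the plus strand at chr19:41535183-41536904, 12614 bases from CEACAM21, a cell adhesion molecule gene whose own mean was too low to be tested. It measured 0.803, 0.473 and 0.452 FPKM in siNC and 1.88, 1.79 and 1.41 FPKM in siRBM8A. The groups did not overlap. The mean went from 0.576 ± 0.197 to 1.69 ± 0.248 FPKM (SD, n = 3 each), 2.94-fold, a log2 fold change of 0.78 (SE 0.151, limma adjusted p = 0.0368), on 49 fragments in siNC and 142 in siRBM8A in all. As in LINC01023, the siNC mean was under 1 FPKM.

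All 3 calls depended on single libraries. Without siNC replicate 1, 2 or 3 the limma adjusted p of LINC01023 was 0.0565, 0.0650 and 0.106, and without siRBM8A replicate 3 it was 0.108. For LINC02331 the same 4 omissions gave 0.0837, 0.0600, 0.0988 and 0.101. For LINC01480 they gave 0.0908, 0.0882, 0.171 and 0.129, and without siRBM8A replicate 1 or 2 it was 0.0731 and 0.0683. The fold changes stayed above 0 in each of these fits, and with fewer libraries the count over all tested genes went down as well, to 12, 132, 8 and 2 in those 4 fits.

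**Figure D2:**
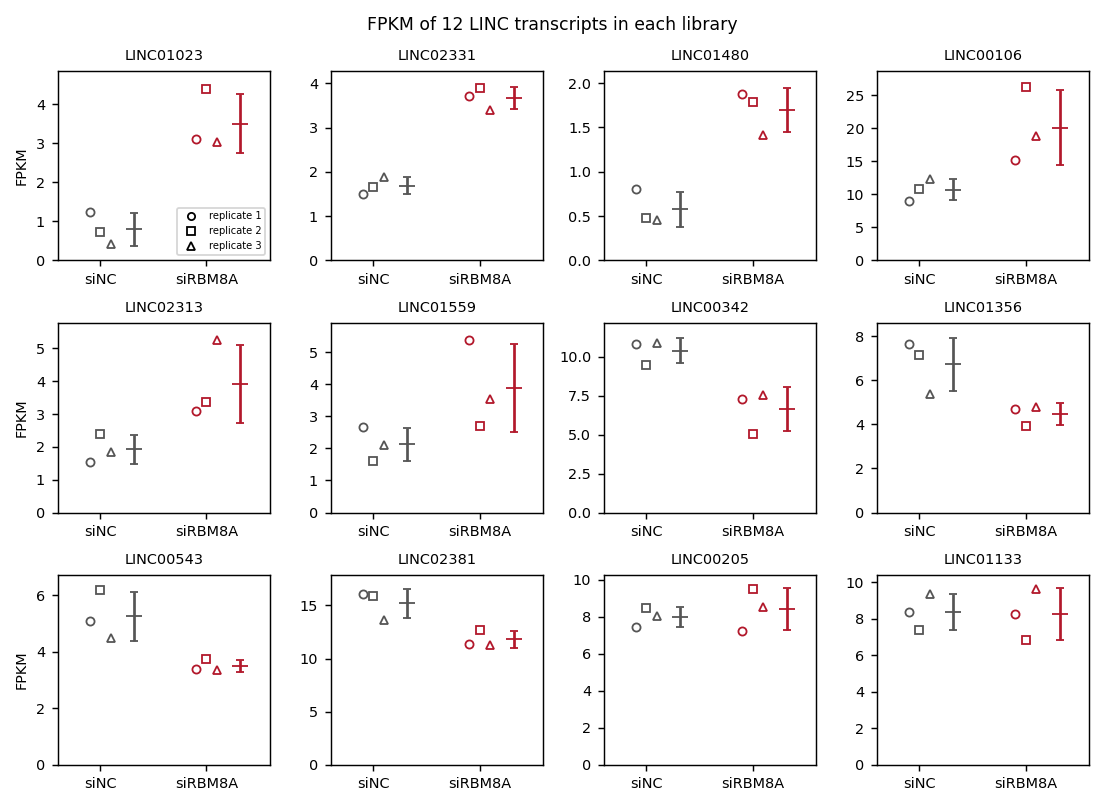
FPKM of 12 LINC transcripts in each library, with 1 marker shape per replicate number and the group mean ± SD beside the points. In LINC01023, LINC02331 and LINC01480 each siRBM8A library lies above each siNC library, while the groups overlap in LINC00205 and LINC01133.

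Among the transcripts with a studied RNA, LINC01578 is also known as CHASERR, which lies upstream of the chromatin remodeler gene CHD2 and restrains its expression in mouse and human cells. LINC01578 measured 3.73, 3.73 and 3.86 FPKM in siNC and 5.54, 3.89 and 5.29 FPKM in siRBM8A (log2 fold change 0.29, SE 0.131, limma adjusted p = 0.211, and 0.0656 with the block). The replicate 2 library of siRBM8A lay just above the siNC values and the other two well above. CHD2 had a mean of 9.03 FPKM in siNC and 10.8 in siRBM8A (log2 fold change 0.24, SE 0.0828, limma adjusted p = 0.130, and 0.0161 with the block).

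LINC01234, which has been studied in gastric cancer cells, measured 2.91, 3.20 and 2.86 FPKM in siNC and 4.24, 4.19 and 4.02 FPKM in siRBM8A. The groups stood clear of each other, with a log2 fold change of 0.37 (SE 0.0928, limma adjusted p = 0.0657, and 0.0124 with the block). LINC00857, a cancer-associated transcript, measured 6.15, 6.24 and 5.59 FPKM against 7.24, 7.52 and 7.82 FPKM (log2 fold change 0.29, SE 0.0903, limma adjusted p = 0.108, and 0.0237 with the block). LINC01133, also studied in gastric cancer cells, gave 8.35, 7.39 and 9.35 FPKM in siNC and 8.27, 6.82 and 9.66 FPKM in siRBM8A. Its replicate 2 library was the lowest and its replicate 3 library the highest in both groups, and the means of 8.36 ± 0.978 and 8.25 ± 1.42 FPKM (SD, n = 3 each) differed by less than that spread (limma adjusted p = 0.934).

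The remaining transcripts are known mainly by number. LINC00106, on chromosome X, was the most abundant member, with a mean of 15.4 FPKM over the 6 libraries. It measured 9.04, 10.8 and 12.3 FPKM in siNC and 15.1, 26.2 and 18.9 FPKM in siRBM8A. The siRBM8A values were all higher but spread widely, with replicate 2 on top. The mean was 10.7 ± 1.65 against 20.1 ± 5.65 FPKM (SD, n = 3 each), 1.87-fold, and the log2 fold change of 0.82 (SE 0.207) missed the threshold with a limma adjusted p of 0.0657. With the block it was 0.00781, and over the 19 alternative settings it ran from 0.000192 to 0.215, under 0.05 in 7 of them.

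LINC02313 gave 1.53, 2.39 and 1.85 FPKM in siNC and 3.10, 3.36 and 5.26 FPKM in siRBM8A (log2 fold change 0.73, limma adjusted p = 0.0750, and 0.0186 with the block). LINC01559 gave 2.66, 1.62 and 2.10 FPKM against 5.39, 2.70 and 3.55 FPKM (log2 fold change 0.62, limma adjusted p = 0.144, and 0.00694 with the block). In LINC01559 the same replicate order, 1 above 3 above 2, appeared in both groups, and the lowest siRBM8A library was level with the highest siNC library. LINC01770, whose start lies 288 bases from that of VWA1, gave 5.65, 5.01 and 5.06 FPKM against 6.71, 8.76 and 7.96 FPKM (log2 fold change 0.49, limma adjusted p = 0.0582, and 0.0180 with the block).

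LINC01594 gave 3.15, 2.26 and 3.72 FPKM in siNC and 3.95, 5.04 and 5.06 FPKM in siRBM8A (log2 fold change 0.50, limma adjusted p = 0.118, and 0.0372 with the block). LINC00852, an unspliced transcript, gave 1.18, 0.283 and 0.586 FPKM against 2.08, 1.58 and 0.941 FPKM (log2 fold change 0.60, limma adjusted p = 0.189, and 0.0438 with the block). Its groups overlapped, since siNC replicate 1 exceeded siRBM8A replicate 3. LINC00839, LINC00265 and LINC01836 were the others called higher with the block, at log2 fold changes of 0.42, 0.42 and 0.35 and limma adjusted p-values with the block of 0.00919, 0.0413 and 0.0290.

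On the lower side, 0 members passed the threshold without the block and 5 passed with it. LINC00342 (chromosome 2) measured 10.8, 9.49 and 10.9 FPKM in siNC and 7.31, 5.04 and 7.56 FPKM in siRBM8A. The groups did not overlap, and replicate 2 was lowest in both. The siRBM8A mean of 6.64 ± 1.39 FPKM was 63.9% of the siNC mean of 10.4 ± 0.787 FPKM (SD, n = 3 each), a log2 fold change of -0.59 (SE 0.154, limma adjusted p = 0.0709, and 0.00548 with the block). Its longest transcript has a near-identical copy in AC159540.2, so the fragments of the pair could have been split or exchanged in counting.

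LINC02381 (chromosome 12), the second most abundant member, gave 16.1, 15.9 and 13.6 FPKM in siNC and 11.4, 12.7 and 11.3 FPKM in siRBM8A, and the lower mean was 77.6% of the higher (log2 fold change -0.34, SE 0.105, limma adjusted p = 0.104, and 0.0112 with the block). LINC00543 (chromosome 13), an unspliced transcript 6767 bases from the intestinal transcription factor gene CDX2, gave 5.08, 6.19 and 4.47 FPKM against 3.38, 3.74 and 3.35 FPKM (log2 fold change -0.47, SE 0.125, limma adjusted p = 0.0750, and 0.00897 with the block). Both had every siRBM8A library below every siNC library. LINC01356 (chromosome 1) gave 7.65, 7.15 and 5.38 FPKM against 4.72, 3.92 and 4.80 FPKM (log2 fold change -0.49, limma adjusted p = 0.0931, and 0.0301 with the block), and genes on the other strand overlap 21.9% of its exons. LINC00641 (chromosome 14) gave 4.58, 3.87 and 4.74 FPKM against 3.89, 2.73 and 3.15 FPKM, with overlap between the groups (log2 fold change -0.35, limma adjusted p = 0.164, and 0.0241 with the block).

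The other members at the lower end were not called with or without the block. LINC01336 gave 1.29, 1.42 and 2.04 FPKM in siNC and 0.743, 1.40 and 0.581 FPKM in siRBM8A (log2 fold change -0.45, limma adjusted p = 0.212). LINC02041 and LINC01176 had log2 fold changes of -0.31 and -0.28 with limma adjusted p-values of 0.472 and 0.372, and in both the groups overlapped. LINC02041 rested on 31 fragments in siNC and 22 in siRBM8A.

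Several abundant members differed little between the groups. LINC00205 gave 7.43, 8.48 and 8.03 FPKM in siNC and 7.25, 9.50 and 8.55 FPKM in siRBM8A (log2 fold change 0.07, SE 0.118, limma adjusted p = 0.761). LINC02365 gave 8.44, 7.42 and 7.60 FPKM against 7.11, 6.90 and 7.94 FPKM (log2 fold change -0.08, SE 0.0991, limma adjusted p = 0.628). In both the range of siRBM8A overlapped that of siNC, and the difference was within 1 standard error of 0. An adjusted p above the threshold does not show that a level stayed the same.

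**Figure D3:**
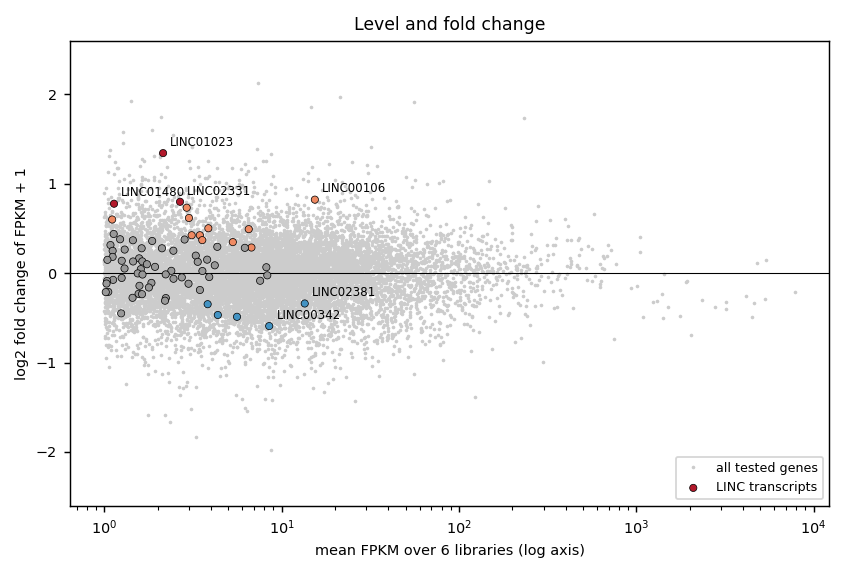
Mean FPKM over the 6 libraries (log axis) against the log2 fold change of FPKM + 1 for all 12678 tested genes in grey and the 74 LINC transcripts in colour, where dark red marks the 3 called higher, orange and blue those called higher or lower with the replicate block only, and grey the rest. The members reach 15.4 FPKM in LINC00106, and the fold changes of the 3 called transcripts belong to low levels.

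As a class the LINC transcripts were scarce. On the FPKM scale 35 members had a mean of 1 to 2, 28 of 2 to 5, 9 of 5 to 10 and 2 above that. The median mean level was 2.17 FPKM, against 6.63 FPKM over all tested genes, and the 8 highest members held 32.8% of the summed mean. The summed level of the 74 was 217, 212 and 216 FPKM in siNC and 229, 253 and 239 FPKM in siRBM8A. The siRBM8A sums were all higher, 241 ± 12.0 against 215 ± 2.74 FPKM (SD, n = 3 each), a ratio of 1.12. Without LINC00106 the sums were 221 ± 6.36 and 204 ± 3.37 FPKM, a ratio of 1.08. The sums include the 9 members that the filter admitted through a higher siRBM8A mean and the 5 through a higher siNC mean. These ratios are therefore a description only. The sum was 0.0741%, 0.0706% and 0.0742% of all FPKM in siNC and 0.0830%, 0.0869% and 0.0827% in siRBM8A. In bulk RNA, a change in the number of cells that make a transcript and a change in its amount per cell cannot be told apart.

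The low levels set the precision. A member had 1 to 1174 fragments per library, and in its lowest library 19 members had under 20 fragments and 34 under 50. The median coefficient of variation within groups was 18.3% for the members and 15.9% for all tested genes. Among genes under 5 FPKM it was 19.8% for the 63 members and 19.3% for the 5241 tested genes of that range, so at a matched level the members varied about as much as other genes. The library of siRBM8A replicate 2 was the highest of the 6 for 21 members, and the other libraries for 6 to 13. Across the 74 members the deviation of that library from its group mean correlated with GC content at Pearson r = 0.423, and that of siRBM8A replicate 1 at -0.383. These correlations are across genes of 1 library, and genes are not independent replicates. The part of GC content in the members' fold changes was not tested beyond the corrected fit, in which 12 members were called higher and 4 lower, 21.6% against 31.7% of all tested genes.

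Of the 9 members with a siNC mean under 1 FPKM, the log2 fold change was above 0 in 9, as the way they passed the filter requires. They include LINC01023 and LINC01480, beside LINC02361 at 0.803 FPKM with siNC and 1.46 with siRBM8A (limma adjusted p = 0.336) and LINC01979 at 0.923 and 1.53 FPKM (limma adjusted p = 0.204). Just inside the level of 1 FPKM were LINC01145, LINC00843 and LINC01137, with means of 1.02, 1.03 and 1.04 FPKM over the 6 libraries. Just outside were LINC00174, LINC01775 and LINC01269, with means of 0.990, 0.972 and 0.966 FPKM. LINC01775 is an example of what the level leaves out, with a mean of 0.441 FPKM in siNC and 1.50 FPKM in siRBM8A. These means rested on 8 fragments in siNC and 27 in siRBM8A in all, and their difference was not tested.

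By annotation, 56 of the 74 are lincRNA genes, 7 antisense genes, 5 processed transcripts, 5 transcribed pseudogenes and 1 a bidirectional promoter transcript, so the shared name does not always mean intergenic. Their median exon length was 1988 bases, against 4334 over all tested genes. At least 1 annotated transcript is spliced in 67 members, and 7 are annotated with a single exon. The single-exon members had a median log2 fold change of 0.14 with a range of -0.47 (LINC00543) to 1.34 (LINC01023). The spliced members had a median of 0.09. Among all 977 tested long non-coding RNAs, the 229 single-exon genes had a median of 0.08, and 12 of them rose and 2 fell. The 748 spliced ones had a median of 0.10, and 44 of them rose and 11 fell. Over all tested genes 2.41% were called higher and 3.19% lower. The difference between single-exon and spliced genes was not tested.

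The spliced members were divided by whether any annotated transcript has a junction more than 50 bases after the stop codon of its longest reading frame, the arrangement that favours nonsense-mediated decay. In the 40 members that have it the median log2 fold change was 0.13 and 25 were above 0. In the 27 that do not it was 0.05 and 14 were above 0. With the block, 7 were called higher and 3 lower in the former, and 5 higher and 1 lower in the latter, beside 18.9% higher and 21.3% lower over all tested genes. The higher calls in both classes were near that background, and the difference between the classes was not tested. The 3 members called without the block fell 1 in each class, LINC01023 unspliced, LINC02331 with such a junction and LINC01480 without. The longest reading frame was found by its letters, and its translation was not measured.

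**Figure D4:**
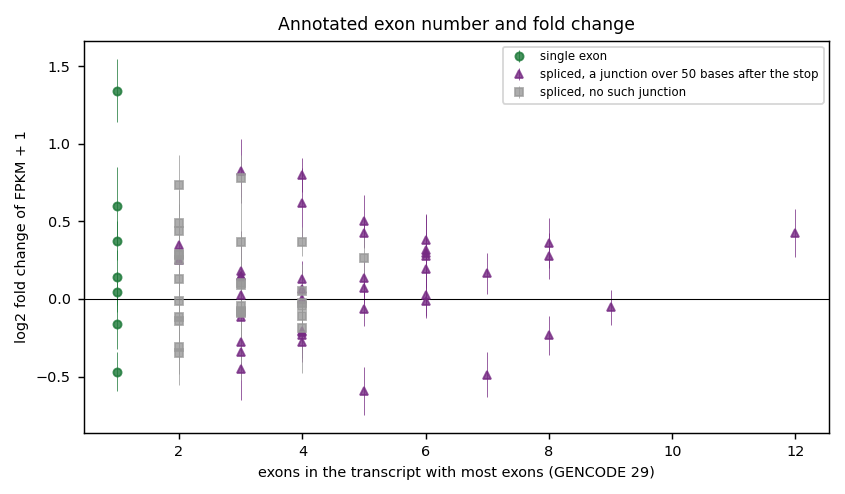
Number of exons in the annotated transcript with most exons against the log2 fold change of FPKM + 1, with bars for the standard error, for the 74 LINC transcripts in 3 classes of annotated structure. Unspliced members span -0.47 to 1.34, and the 3 classes overlap over most of their range.

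In 11 members the start lies within 2000 bases of the start of a protein-coding gene on the other strand. The fold changes of member and partner had the same sign in 8 of the 11 pairs, with Pearson r = 0.315 and Spearman rho = 0.482 across pairs, given as a description since both come from the same 6 libraries. Limma called 0 of the 11 partners without the block, 1 at an unadjusted p under 0.05, and 3 with the block. The shares of all tested genes were 5.59%, 26.3% and 40.2% in that order, so these counts give no result about the partners. LINC00205, at a log2 fold change of 0.07, starts 152 bases from POFUT2, a protein O-fucosyltransferase gene, which had 0.44 (SE 0.106, limma adjusted p = 0.0604). VWA1, the partner of LINC01770, had a log2 fold change of 0.08 (SE 0.220, limma adjusted p = 0.840).

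The sources used here do not say whether counting used strand, and 6 members share over 10% of their exon bases with a gene on the other strand and 3 with a gene on the same strand. In 7 members over 50% of the longest transcript aligned to another gene at 95% identity or more. Besides LINC00342 these were LINC00265, LINC00843, LINC01089, LINC01145 and the pair LINC01106 and LINC01123. None of LINC01023, LINC02331 and LINC01480 was among these 7.

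RefSeq promoters (GRCh38.p14, 250 bases before to 50 after the start) matched 57 of the 74 members by gene identifier or, failing that, by name. The promoter of LINC01023, at chr5:108728212-108728511 on the minus strand, is shown because this member changed most and holds none of the 4 motifs searched. That of LINC01594, at chr2:108217792-108218091 on the minus strand, is shown because it holds 1 of the 2 matches to the ATF4 composite element among the members, in capitals at position -55 from the start.
LINC01023 promoter: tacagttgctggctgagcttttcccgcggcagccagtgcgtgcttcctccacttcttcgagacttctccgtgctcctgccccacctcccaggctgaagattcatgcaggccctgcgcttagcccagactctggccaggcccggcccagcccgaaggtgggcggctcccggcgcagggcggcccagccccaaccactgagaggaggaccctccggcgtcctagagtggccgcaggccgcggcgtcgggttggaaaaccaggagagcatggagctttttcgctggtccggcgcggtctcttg
LINC01594 promoter: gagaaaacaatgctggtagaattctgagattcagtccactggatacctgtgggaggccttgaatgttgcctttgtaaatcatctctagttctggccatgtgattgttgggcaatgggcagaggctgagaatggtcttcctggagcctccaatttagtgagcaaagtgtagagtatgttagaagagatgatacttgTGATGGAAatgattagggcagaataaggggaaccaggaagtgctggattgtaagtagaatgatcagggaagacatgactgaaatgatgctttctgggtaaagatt
The ATF4 element TGATGNAA, searched on both strands, occurred in 3.51% of the members' promoters and in 3.67% of all 27305 promoters of the table. The cyclic AMP response element TGACGTCA occurred in 3.51% against 1.98%, and the antioxidant response element TGACNNNGC in 19.3% against 13.6%, with 2 and 11 members respectively. The E2F site TTTCGCGC occurred in 0 of the 57 against 0.546% of all. By their letters, only the antioxidant response element can overlap another of these motifs, namely the ATF4 element or the E2F site. Such overlaps occurred in 0 of the 27305 promoters. A match is a description of letters, not of binding.

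The machinery that acts on such transcripts was described from gene lists. Of the 5 core genes of the exon junction complex, RBM8A fell and the other 4 were not called. With the block 2 were called lower, RBM8A and CASC3, an outer core protein, which had 13.2 ± 0.764 FPKM with siNC and 9.90 ± 0.768 FPKM with siRBM8A (SD, n = 3 each), a log2 fold change of -0.38 (SE 0.0992, limma adjusted p = 0.0712, and 0.00762 with the block). Of 10 nonsense-mediated decay factors limma called 0, with 2 higher and 1 lower at an unadjusted p under 0.05, and with the block 5 were called higher and 1 lower, beside a background of 18.9% and 21.3%. UPF3B, which links the exon junction complex to decay, had 8.38 ± 0.692 FPKM in siNC and 13.1 ± 2.19 FPKM in siRBM8A (SD, n = 3 each), a log2 fold change of 0.58 (SE 0.137, limma adjusted p = 0.0582, and 0.00372 with the block). Of 22 genes of the nuclear exosome and its adaptors limma called 0, with 1 higher and 4 lower at an unadjusted p under 0.05. With the block 4 were called higher and 7 lower, and the median log2 fold change was 0.00. For each of these lists the share of all tested genes was 26.3% at an unadjusted p under 0.05. With the block it was 18.9% higher and 21.3% lower. MTREX, the helicase that feeds RNA to the nuclear exosome, had 13.3 ± 2.54 FPKM in siNC and 8.80 ± 2.03 FPKM in siRBM8A (SD, n = 3 each), a log2 fold change of -0.55 (SE 0.198, limma adjusted p = 0.142, and 0.00398 with the block). EXOSC10, NCBP1 and C1D were also lower, at -0.39, -0.52 and -0.63 (limma adjusted p = 0.0558, 0.0582 and 0.0689). EXOSC2 went the other way, from 12.6 ± 0.606 to 16.5 ± 0.238 FPKM (SD, n = 3 each). Its log2 fold change was 0.37 (SE 0.0869, limma adjusted p = 0.0575, and 0.00598 with the block).

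Among 25 long non-coding RNAs that carry names of their own, 13 were tested. Of these 5 rose and 0 fell, beside a background of 2.41% higher and 3.19% lower, and 1 was lower at an unadjusted p under 0.05. The list was chosen with earlier results of these data known, so its counts are a description. With the block 6 were called higher and 2 lower, beside 18.9% and 21.3% of all tested genes. The 2 were DANCR (log2 fold change -0.33, limma adjusted p = 0.0887, and 0.0200 with the block) and OIP5-AS1 (-0.28, limma adjusted p = 0.551, and 0.0329 with the block). SNHG5, a host of small nucleolar RNAs, went from 8.11 ± 0.276 to 34.6 ± 1.96 FPKM (SD, n = 3 each), a log2 fold change of 1.97 (SE 0.0907, limma adjusted p = 0.00165). GAS5, ZFAS1, SNHG12 and EPB41L4A-AS1 were the others, at log2 fold changes of 1.01, 1.41, 0.60 and 1.39 (limma adjusted p = 0.00918, 0.0101, 0.0360 and 0.00435). MALAT1, NEAT1, NORAD, TUG1 and H19 were tested and not called (limma adjusted p = 0.576, 0.428, 0.985, 0.676 and 0.304). Annotated small RNA genes on the same strand lie inside 1 of the 74 LINC members, LINC00888, whose mean was 1.67 ± 0.180 FPKM with siNC and 1.21 ± 0.226 FPKM with siRBM8A (SD, n = 3 each; log2 fold change -0.28, limma adjusted p = 0.241). Of 6 LINC symbols once given to loci that encode small proteins, 1 was found in the table, LINC00467, at 0.443 to 0.592 FPKM, which was too low to be tested.

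**Figure D5:**
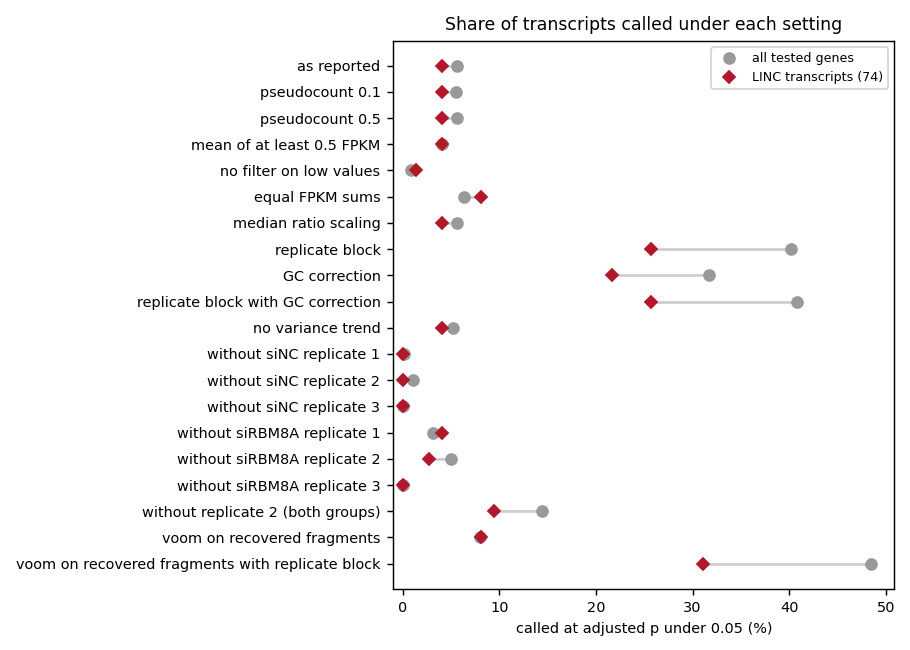
Share of the 74 LINC transcripts (red) and of all tested genes (grey) called at an adjusted p under 0.05, for the fit as reported and each of the 19 alternative settings. The members were called in 4.05% as reported and 25.7% with the replicate block, against 5.59% and 40.2% of all tested genes.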

How the data were processed

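The authors deposited FPKM values for each gene in 6 poly-A RNA libraries. HISAT2, StringTie and GRCh38 are named in the submitters' processing notes, with no role or order. Samples were grouped by the siRNA in their titles. Gene identifiers all matched GENCODE 29, which gave biotypes, exons and coordinates. Each FPKM times exon length was a whole multiple of 1 fragment per library for 100% of values (tolerance 0.001), which gave depth and a voom alternative.

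Genes whose mean reached 1 FPKM were tested on log2(FPKM + 1), pseudocount 1, with limma 3.58.1 (R 4.3.3), variance trend, two-sided, Benjamini-Hochberg over 12678 genes. A log2 fold change is on that scale and understates changes of low genes. The members and gene lists were chosen with earlier results of these data known. Named are RBM8A, called members, the 8 highest and 8 lowest by log2 fold change, the 8 most abundant, 3 on each side of the level, the nearest coding gene of called members, and up to 4 members under 1 FPKM in 1 group. LINC00265, LINC00839, LINC01234, LINC01578, LINC01836 and LINC00888 and genes of the lists were named after their values were seen.

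Same-numbered libraries deviated together across genes (correlations 0.507, 0.663 and 0.102, weakest for replicate 3), which is a pairing seen in the data and not stated in the labels. Alternatives were other pseudocounts, filters and scalings, the replicate block, a GC correction (loess, span 0.3), no variance trend, voom, leaving out each library and, added after seeing the data, both replicate 2 libraries. Copies were found with BLAST+ 2.17.0. Python 3.11.15 (pandas 2.3.3, numpy 2.4.6, matplotlib 3.10.9) made tables and plots. The limma code was tested on simulated data.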

Additional observations from a re-analysis of the deposited data

How the results depend on the processing

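The count of called LINC transcripts was 3 with the other pseudocounts, the filter at 0.5 FPKM, median ratio scaling and no variance trend. It was 1 without a filter, 6 with equal FPKM sums, 19 with the replicate block, 16 with the GC correction, 19 with both, 6 with voom on recovered fragments and 23 with voom and the block. Leaving out 1 library gave 0 to 3, and leaving out both replicate 2 libraries gave 7. Where it was 0 the members at an unadjusted p under 0.05 numbered 19, 15, 15 and 14. The share of all tested genes at that level in these fits is not given here, so these counts give no result about the members. Over all tested genes the count of 709 became 268, 800, 5096, 4021, 5175, 1015 and 6145 in the same order from no filter on, 2 to 628 without 1 library, and 1827 without both replicate 2 libraries. Equal FPKM sums also turned the split of 305 higher and 404 lower into 477 and 323. The members' median log2 fold change was 0.144 with voom and 0.170 with voom and the block, a scale without the added 1, and 0.0731 to 0.129 otherwise. Without single libraries RBM8A ranged from -2.05 to -1.83 on the log2 scale, and its call was lost without siRBM8A replicate 3. The cause of these shifts was not tested.

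The sign of 4 uncalled named members changed. LINC00205 had a log2 fold change of -0.0012 with the GC correction, with or without the block. LINC01133 had 0.0183 with equal FPKM sums, 0.0739 with the GC correction, with or without the block, 0.00092 with voom and 0.0105 with voom and the block. LINC00843 had 0.0399 with the GC correction, with or without the block. When libraries were left out, LINC00205 ranged from -0.0145 to 0.159, LINC01133 from -0.132 to 0.0912, LINC01137 from -0.174 to 0.0189 and LINC00843 from -0.199 to 0.00030. Of 456 values for 24 named members, 376 kept direction and side of the threshold, 48 newly passed it, 17 no longer passed it and 15 changed sign. In their lowest library 34 of the 74 members had under 50 fragments, which limits their precision.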
